A study of Macaca mulatta with 5 samples.

Results

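A group of 670 macaque genes was detected in lung and spleen and stayed under the detection threshold in cerebellum, kidney and heart. These were 670 of the 28633 genes with an Ensembl identifier, or 2.34%. A gene was taken when the highest RPKM among its transcripts was 1 or more in lung and in spleen and under 1 in the other 3 tissues. RPKM is the number of reads on a transcript per kilobase of exon, scaled to the library's total of properly mapped reads, so levels can be set beside each other between genes. Between tissues they also depend on what else a library holds. The genes were chosen by their levels in the 5 tissues, and these levels are given here as a description with no test.

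Poly(A)-positive RNA of rhesus macaque (Macaca mulatta) was sequenced with a strand-specific dUTP protocol, with 1 library for each of the 5 tissues and no replicates. All 5 libraries were labelled male, with no strain, treatment or age in the labels used here. The study describes cerebellum, kidney, lung and heart as tissues of the same animal, and the animal that gave the spleen is not given in the sources used here. A difference between spleen and lung therefore cannot be told apart from a difference between animals or between preparations. Since each tissue is 1 library, the intervals below cover counting error only.

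The spleen is a lymphoid organ in which B cells gather in follicles and T cells in sheaths around small arteries, while macrophages of the red pulp clear blood cells and particles. The lung carries many leukocytes of its own, among them alveolar macrophages that take up inhaled material, T cells, NK cells, and a large pool of neutrophils and monocytes held in its capillaries. RNA of such cells reaches a bulk library in proportion to the number of cells and to the RNA that each one holds, and in these libraries fewer cells of a type and less RNA per cell cannot be told apart.

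Depth ran from 48306898 properly mapped reads in kidney to 81517974 in cerebellum, with 77785104 in lung and 67110396 in spleen, and at these depths 1 RPKM on a transcript of 1 kb stood for 48.3 to 81.5 reads. The tissue labels were checked against lists of tissue markers. All 17 measured lung epithelium genes were highest in lung, 12 of 12 spleen genes in spleen, 10 of 10 kidney genes in kidney, 7 of 7 heart genes in heart and 9 of 10 cerebellum genes in cerebellum. The exception was CALB1, a calcium-binding protein, which was higher in kidney. The surfactant protein gene SFTPC was at 4095 RPKM in lung, and was listed at 0 in spleen, and the spleen transcription factor gene TLX1 was at 27.6 RPKM in spleen, and was listed at 0 in lung. The upper quartile of levels, taken over the transcripts with reads in a tissue, was lowest in heart, at 3.99 RPKM. It was between 7.04 and 9.85 RPKM in the other tissues.

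Lung and spleen shared more genes of this kind than any other pair of the 5 tissues. The other 9 pairs had between 19 genes (heart and spleen) and 262 genes (kidney and lung). Of the 11582 genes at 1 RPKM or more in lung and spleen, 5.78% were in the group and the rest were also detected elsewhere. A further 552 genes were at 1 RPKM or more in lung alone and 545 in spleen alone. Of the 670 genes, 457 had a symbol, which was 2.94% of all 15556 genes with a symbol, and 213 were known by identifier alone.

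**Figure D1:**
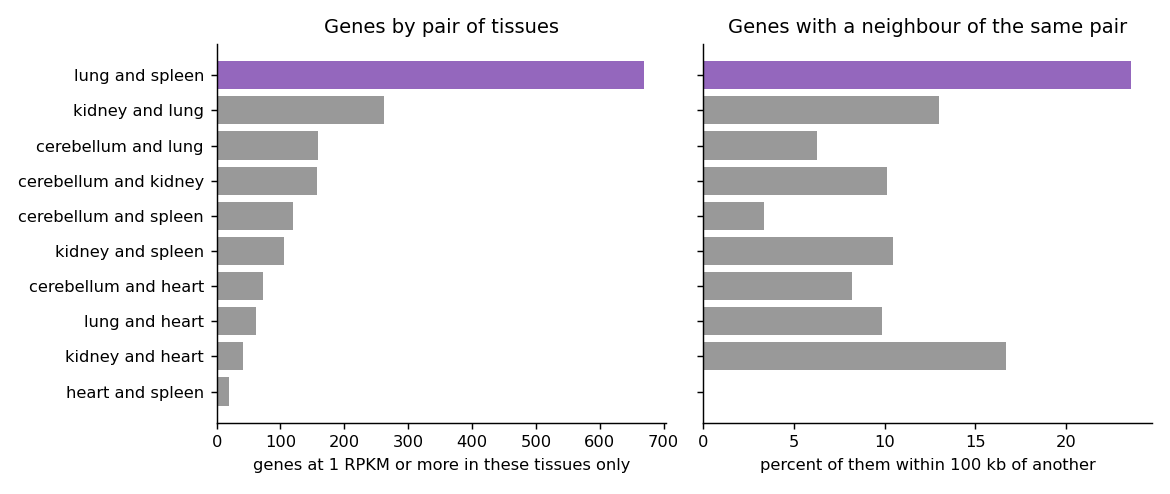
Number of genes at 1 RPKM or more in exactly the pair of tissues named (left, bars) and the percent of these genes that lie within 100 kb of another gene of the same pair (right, bars). Lung and spleen had 670 genes, and 23.6% of them had such a neighbour.

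Most of the genes were present at modest levels. The median was 2.43 RPKM in lung and 4.38 RPKM in spleen, against 0.355 in kidney, 0.197 in cerebellum and 0.180 in heart. The other genes at 1 RPKM or more in lung and spleen had medians of 7.93 in lung and 8.31 in spleen. Only 37 genes of the group reached 10 RPKM in both tissues, and 113 were under 2 RPKM in both. Among the 12 with the highest geometric mean of the levels in lung and spleen were GZMB, MS4A1, IRAG2, CSF3R, FCRLA, NCF1, CST7, LAMP3, ARHGAP30, NCKAP1L and CFP. All of these, apart from LAMP3, are known mainly from leukocytes.

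The threshold did not always fall in a gap. For 352 genes the highest of the other 3 tissues was at 0.5 RPKM or more, and over the whole group the highest of the 3 was kidney for 374 genes, cerebellum for 154 and heart for 136. The lower of lung and spleen was at least 10-fold above the highest other tissue for 223 genes and under 2-fold above it for 112. For 421 genes the 95% counting interval lay clear of 1 RPKM in all 5 tissues, and for 249 genes it did not. Only 6 genes had no read at all in cerebellum, kidney and heart. Among genes just inside the limits were ANKRD22, at 1.0 RPKM in lung, CETP (cholesteryl ester transfer protein), at 1.01 in spleen, and TASP1 (a threonine protease), at 0.997 in kidney. Just outside were MYBL2, a cell cycle transcription factor gene at 0.998 in lung, UBXN11, at 0.997 in spleen, and CYBB and IRF7, at 1.0 in heart. CYBB encodes the catalytic subunit of the phagocyte NADPH oxidase, and with 24.5 RPKM in lung and 79.5 in spleen it missed the group by its heart value alone.

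Levels were higher in spleen than in lung for 499 of the 670 genes. The spleen to lung ratio had a median of 1.66 and ran from 0.0298 to 107, where the other genes detected in both tissues had a median of 1.11. Spleen was at least 2-fold above lung for 293 genes (43.7%), beside 11.9% of all 11582 genes at 1 RPKM or more in both. Lung was at least 2-fold above spleen for 57 genes (8.51%), beside 10.6% of all. At 10-fold, 32 genes (4.78%) were higher in spleen, beside 0.544%, and 8 genes (1.19%) were higher in lung, beside 0.846%. The exact counting interval of the ratio lay wholly past 2-fold for 255 of the 293 genes and 46 of the 57. When the libraries were scaled to a common upper quartile, the same 670 genes gave 271 and 67, with a median ratio of 1.5 where all genes had 1.01.

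**Figure D2:**
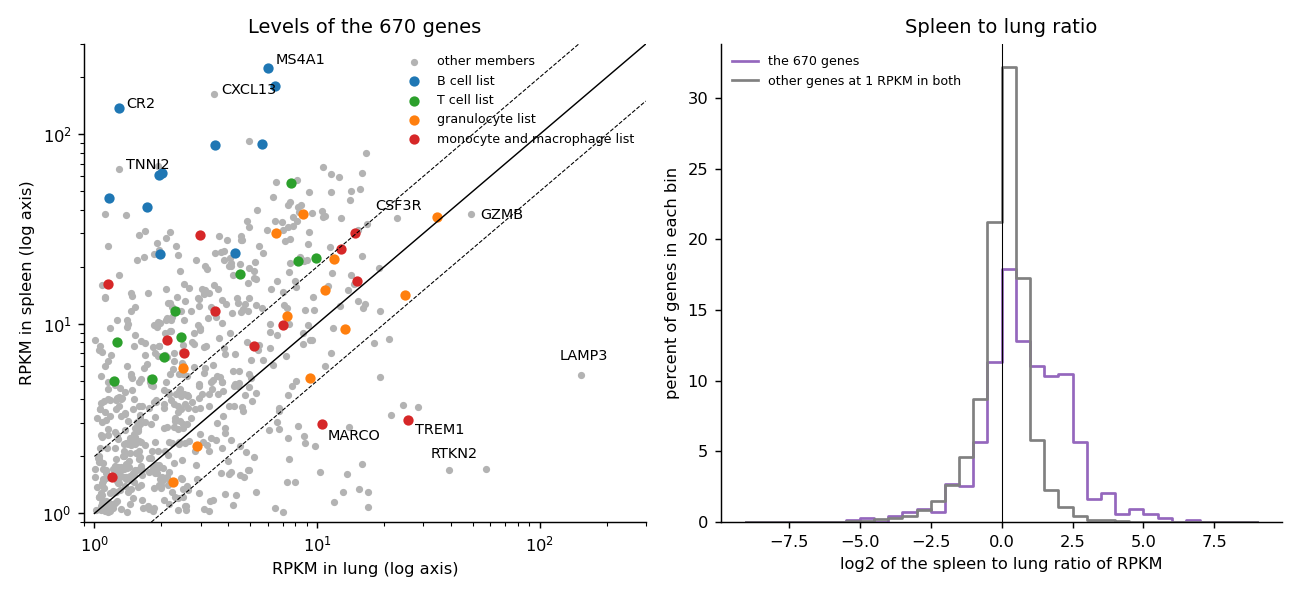
Left, RPKM in lung and in spleen of the 670 genes, 1 point per gene on log axes, with 4 gene lists in colour, the line of equal levels (solid) and the 2-fold lines (dashed). Right, the log2 spleen to lung ratio of the 670 genes and of the 10912 other genes at 1 RPKM or more in both, as percent of genes per bin; the first is shifted to the right, with medians of 1.66 and 1.11 on the linear scale.

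Genes of B cells had the highest median spleen to lung ratio among the cell type lists. The B cell list had 28 measured genes, of which 11 were in the group. Spleen was at least 2-fold above lung for all 11, with a median ratio of 27.8 and a range of 5.51 to 107. Over all genes with a symbol 2.94% were in the group. Over the whole group spleen was at least 2-fold above lung for 43.7%. Both shares are the background for the lists that follow. MS4A1 (chr14:13592545-13610614, in the rheMac2 build as are all positions here), which encodes the B cell surface protein CD20, was at 225 RPKM in spleen and 6.05 in lung, with 0.132 in kidney, 0.0126 in heart and 0.00979 in cerebellum. This was the highest spleen level in the group, 37.3 times the lung level (95% counting interval 35.2 to 39.5). CR2, the complement receptor of mature B cells and follicular dendritic cells, was at 138 RPKM in spleen, 1.30 in lung and 0.132 in kidney, and was listed at 0 in heart and cerebellum. Its ratio of 107 (interval 96.5 to 118) was the largest of all. FCRLA, a Fc receptor-like protein of B cells, was at 180 RPKM in spleen and 6.46 in lung, with 0.133 in kidney, 0.127 in heart and 0.0329 in cerebellum. In all 3 genes spleen stood above lung. That lung stood above each of the other 3 tissues is required by the choice of genes. CD22, an inhibitory co-receptor, and BTK, a kinase downstream of the B cell receptor, had ratios of 31.3 and 5.51. Of the other 17 genes of the list, 10 were detected in spleen alone, among them PAX5 (28.4 RPKM in spleen and 0.629 in lung), the transcription factor that keeps B cell identity, and BLK and BANK1, which act in B cell receptor signalling.

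Among chemokines, 2 ligands that place lymphocytes in lymphoid tissue were in the group with their receptors. CXCL13, the chemokine that draws B cells into follicles, was at 163 RPKM in spleen and 3.44 in lung, with 0.216 in kidney and 0.0213 in cerebellum, and was listed at 0 in heart. CXCR5, its receptor, was at 46.0 RPKM in spleen and 1.17 in lung, with 0.0588 in kidney and 0.0448 in heart, and was listed at 0 in cerebellum. Ligand and receptor had ratios of 47.5 and 39.4. CCL19, which attracts T cells and dendritic cells, was at 40.1 RPKM in spleen and 5.38 in lung, with 0.604 in heart, 0.290 in kidney and 0.120 in cerebellum. CCR7, the receptor of CCL19, was at 35.0 RPKM in spleen and 4.86 in lung, with 0.0920 in kidney and 0.0843 in heart, and was listed at 0 in cerebellum. These had nearly the same ratio, 7.45 for the ligand and 7.21 for the receptor. LTB, which encodes lymphotoxin beta, a cytokine needed to build lymphoid tissue, was at 92.3 RPKM in spleen and 4.95 in lung, with 0.596 in kidney, 0.140 in heart and 0.0592 in cerebellum. In the list of chemokines and their receptors 8 of 30 measured genes were in the group, with a median ratio of 7.33, and 2 of the 8 were higher in lung, namely CXCR1 and CCR3. CXCR4, a chemokine receptor of most leukocytes, was not, since it reached 27.7 RPKM in kidney, beside 262 in spleen and 85.7 in lung. In the list of interleukins and their receptors 9 of 35 were in the group, and their ratios ran from 0.128 for IL1RN to 18.6 for LTB.

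The T cell genes of the group were also higher in spleen, by a smaller factor. Of 25 measured genes 10 were in the group, beside 2.94% of all genes with a symbol. Spleen was at least 2-fold above lung for all 10, beside 43.7% of the whole group, and the median ratio was 3.79 (2.24 to 7.23). CD3E, a subunit of the T cell receptor complex, was at 55.4 RPKM in spleen and 7.66 in lung, with 0.852 in kidney, 0.175 in cerebellum and 0.0250 in heart, and the counting interval of its kidney value held 1. CD247, the zeta chain of the same complex, was at 22.2 RPKM in spleen and 9.94 in lung, with 0.471 in kidney, 0.220 in cerebellum and 0.0435 in heart. The chains of the complex thus differed in ratio, 7.23 (interval 6.70 to 7.82) for CD3E and 2.24 (2.08 to 2.41) for CD247, which NK cells also use. ZAP70, the kinase that binds the zeta chain, had 21.4 RPKM in spleen and 8.19 in lung. A further 8 genes of the list were detected in spleen alone, such as CD3G, at 7.82 RPKM in spleen and 0.824 in lung. IL7R, the receptor of interleukin 7, was the T cell list gene with the opposite lean, at 85.3 RPKM in lung and 31.4 in spleen, and was not in the group because of 1.42 RPKM in kidney. CD4 and CD8A left the group because they reached 1 RPKM elsewhere, with 3.87 and 1.15 RPKM in heart.

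Only 6 plasma cell genes were measured, and 4 of them were in the group. Their ratios ran from 0.553 for PRDM1, a transcription factor that other lymphocytes use as well, to 24.1 for POU2AF1, a B cell co-activator.

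Genes of NK cells and cytotoxic lymphocytes lay closer to equal levels. Of 18 measured genes 11 were in the group, with a median ratio of 1.86 and a range of 0.774 to 5.55. The granzymes, proteases of cytotoxic granules, differed among themselves. GZMB was at 49.1 RPKM in lung and 38.0 in spleen, with 0.727 in kidney, 0.458 in heart and 0.0738 in cerebellum, a ratio of 0.774 (interval 0.736 to 0.814). GZMK was at 36.6 RPKM in spleen and 7.79 in lung, with 0.591 in kidney and 0.180 in heart, and was listed at 0 in cerebellum, a ratio of 4.70. GZMA was low in both, with 1.76 RPKM in spleen and 1.32 in lung, and was listed at 0 in the other 3 tissues. The counting interval of its ratio, 0.990 to 1.79, held 1, so no difference was detectable at this depth. NKG7, a granule membrane protein, had 15.0 RPKM in spleen and 13.8 in lung, and its interval also held 1 (0.987 to 1.2).

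The granulocyte genes of the group had the median ratio nearest to equal levels among the immune lists, 1.23 (0.560 to 4.63). They were 12 of 23 measured genes, with CMA1, the mast cell chymase, among them. All genes at 1 RPKM or more in lung and spleen had a median of 1.12. Over all 23 measured genes, 13 were highest in lung, 9 in spleen and 1 in kidney. Outside the group, S100A9 had 551 RPKM in lung and 162 in spleen, and CPA3 had 13.2 and 0.0903. CSF3R, the receptor of granulocyte colony-stimulating factor, was at 36.6 RPKM in spleen and 34.4 in lung, with 0.452 in heart, 0.222 in kidney and 0.219 in cerebellum, a ratio of 1.06 (interval 1.03 to 1.10). CAMP, the cathelicidin antimicrobial peptide, was at 24.9 RPKM in lung and 14.2 in spleen, with 0.680 in heart, 0.198 in kidney and 0.117 in cerebellum. CXCR1 and CXCR2, the receptors of interleukin 8, lie next to each other (chr12:81960442-81994223) and leaned to opposite sides. CXCR1 was at 9.31 RPKM in lung and 5.21 in spleen, with 0.189 in heart, 0.0412 in kidney and 0.0122 in cerebellum. CXCR2 was at 7.35 RPKM in lung and 11.0 in spleen, with 0.632 in kidney, 0.248 in heart and 0.113 in cerebellum. The intervals of their ratios, 0.511 to 0.613 and 1.35 to 1.67, did not overlap. CD177, a neutrophil surface protein, and MMP9, a gelatinase stored in neutrophil granules, were higher in spleen, with ratios of 4.39 and 4.63.

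**Figure D3:**
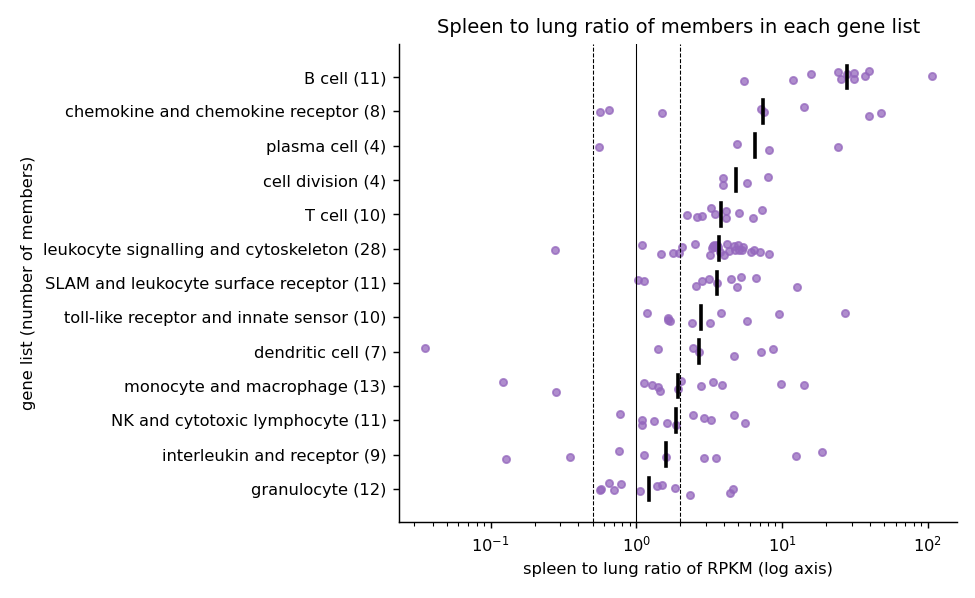
Spleen to lung ratio (log axis) of the genes of the group in each gene list that has 4 or more of them, 1 point per gene, with the median as a bar and lines at 1 (solid) and at 2-fold (dashed); the tissue marker list of spleen is left out. B cell genes have the highest median (27.8) and granulocyte genes the lowest (1.23); a gene can stand in more than 1 list.

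Most macrophage and monocyte genes of the group were higher in spleen, and 2 were higher in lung, MARCO and TREM1. Of 32 measured genes 13 were in the group, with a median ratio of 1.94 and a range of 0.122 to 14.1. Over all 32 measured genes, 21 were highest in spleen, 10 in lung and 1 in cerebellum. Among the 10 outside or inside the group that were highest in lung were LYZ, with 345 RPKM in lung and 176 in spleen, and CD14, with 62.7 and 29.4. MARCO, a scavenger receptor of macrophages in the alveoli and the splenic marginal zone, was at 10.6 RPKM in lung and 2.98 in spleen, with 0.0448 in heart and 0.0116 in cerebellum, and was listed at 0 in kidney, a ratio of 0.281 (interval 0.252 to 0.313). TREM1, an activating receptor of myeloid cells, was at 25.7 RPKM in lung and 3.13 in spleen, with 0.879 in heart and 0.0887 in kidney, and was listed at 0 in cerebellum, a ratio of 0.122. SIGLEC1, the sialic acid-binding receptor that marks macrophages of the splenic marginal zone, was at 29.6 RPKM in spleen and 2.99 in lung, with 0.979 in cerebellum, 0.479 in kidney and 0.460 in heart, a ratio of 9.88. CD33, another sialic acid-binding receptor of myeloid cells, had 16.2 RPKM in spleen and 1.15 in lung. SPI1, the transcription factor PU.1 of myeloid cells and B cells, and FCGR3, a receptor of immunoglobulin G, lay near 2-fold, with ratios of 1.94 and 2.03. Well-known genes of this list such as LYZ, CD14, CD163 and CSF1R were not in the group, since each reached 1 RPKM in kidney or heart as well.

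Innate sensors covered a wide range. Of 21 measured genes 10 were in the group, with a median ratio of 2.79. TLR10, a toll-like receptor known from B cells, was at 37.5 RPKM in spleen and 1.39 in lung, with 0.182 in kidney, 0.0845 in heart and 0.0750 in cerebellum. TLR1, its neighbour and a partner of TLR2 in the recognition of bacterial lipoproteins, was at 27.5 RPKM in spleen and 7.21 in lung, with 0.897 in kidney, 0.709 in cerebellum and 0.479 in heart. Within this cluster (chr5:33754652-33788061) the ratio was 27.0 for TLR10 and 3.82 for TLR1. TLR6, the next gene of this receptor family in the neighbourhood, was not in the group because of 1.47 RPKM in kidney, beside 22.4 in spleen and 5.91 in lung. TLR2 itself had 12.1 RPKM in spleen and 7.30 in lung. AIM2, a sensor of cytosolic DNA, had 42.4 RPKM in spleen and 7.40 in lung, and NOD2, a sensor of bacterial cell wall fragments, had 2.95 and 2.50.

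Dendritic cell genes of the group were higher in spleen with the exception of LAMP3. The list had 7 of 19 measured genes in the group, with a median ratio of 2.70. Over all 19 measured genes, 16 were highest in spleen, 2 in heart and 1 in lung. Outside the group, CD1D was at 3.93 RPKM in lung and 3.28 in spleen. IRF8, a transcription factor of dendritic cells and B cells, was at 56.3 RPKM in spleen and 6.53 in lung, with 0.449 in cerebellum, 0.300 in heart and 0.179 in kidney. LAMP3 (chromosome 2), which marks mature dendritic cells and also the alveolar type II cells that make surfactant, was at 153 RPKM in lung and 5.40 in spleen, with 0.0135 in kidney and 0.00799 in cerebellum, and was listed at 0 in heart. It had the highest lung level of the group and a ratio of 0.0352 (interval 0.0332 to 0.0374). LAMP3 was also the only gene of the lung epithelium list in the group. Of the 17 measured genes of that list 13 were under 1 RPKM in spleen, and the surfactant genes SFTPB, SFTPC and SFTPD, the club cell gene SCGB1A1 and the lung genes NKX2-1 and CLDN18 were listed at 0 there. The other 3 at 1 RPKM or more in spleen were AGER (32.4 RPKM), HOPX (10.3) and NAPSA (8.23), each of which was also detected in kidney.

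The list of genes shared by many kinds of leukocytes had the most genes in the group. Of 45 measured genes of leukocyte signalling and the cytoskeleton 28 were in the group, beside 2.94% of all genes with a symbol. Spleen was at least 2-fold above lung for 23, beside 43.7% of the whole group. Lung was at least 2-fold above spleen for 1, and the median ratio was 3.69. WAS, the regulator of actin that is mutated in Wiskott-Aldrich syndrome, was at 36.6 RPKM in spleen and 10.7 in lung, with 0.699 in kidney, 0.578 in heart and 0.484 in cerebellum. NCKAP1L, a subunit of the actin regulatory WAVE complex of blood cells, had a kidney level of 0.987 RPKM, so its place in the group rests on 1 kidney value near the limit. PRKCQ, a protein kinase C of T cells, was the exception in direction, with 19.1 RPKM in lung and 5.28 in spleen. Of 25 measured SLAM family and other leukocyte surface receptor genes 11 were in the group, with a median ratio of 3.58. CD69, an early activation marker that keeps lymphocytes in tissues, had 8.93 RPKM in spleen and 8.69 in lung.

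The tissue marker, MHC class II, red cell and cell division lists differed in the share of their measured genes in the group. It was 41.7% for spleen, 8.7% for cell division and 5% for red cells and platelets. Over all genes with a symbol it was 2.94%. None of the measured cerebellum, kidney and heart markers was in the group, and of the 12 spleen markers 5 were, all of them B cell or chemokine genes. None of 4 measured MHC class II pathway genes was in the group, because each reached 1 RPKM in kidney or heart. From the red cell and platelet list 1 of 20 was in the group, NFE2, at 3.20 RPKM in lung and 2.31 in spleen. From the cell division list 4 of 46 were in the group, RRM2, CCNA2, HJURP and TPX2, with ratios of 3.91 to 7.95, while 34 were detected in spleen alone. None of 13 measured genes of the embryonic mesenchyme list, mostly transcription factors, was in the group. Of the 457 genes with a symbol, 131 stood in at least 1 list.

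**Figure D4:**
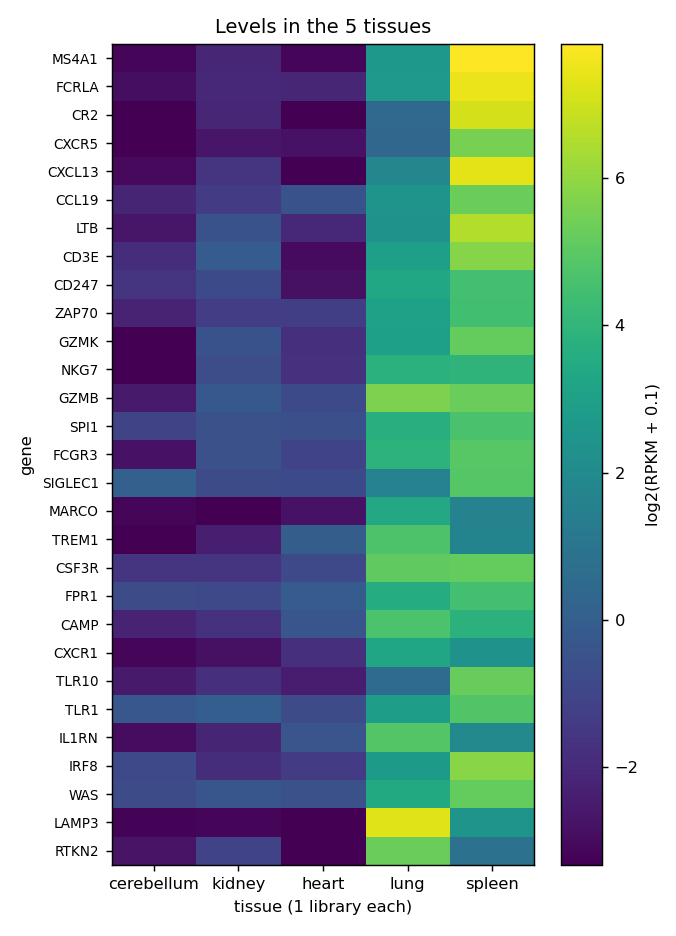
Levels of named genes (rows) in the 5 tissues (columns, 1 library each), as log2(RPKM + 0.1) on the colour scale. Lung and spleen stand out from cerebellum, kidney and heart in every row, as the choice of genes requires; spleen is highest for MS4A1 (225 RPKM) and lung is highest for LAMP3 (153 RPKM).

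The lowest spleen to lung ratios belonged to genes of several kinds, with TREM1 and MARCO above among them. LAMP3 was followed in the order of ratios by RTKN2, a gene known from alveolar type I cells, at 39.1 RPKM in lung and 1.69 in spleen, with 0.375 in kidney and 0.0519 in cerebellum and listed at 0 in heart. ARHGEF26, a guanine nucleotide exchange factor, had 17.0 RPKM in lung and 1.31 in spleen. LAMA3, a laminin chain of epithelial basement membranes, had 13.1 RPKM in lung and 1.31 in spleen. IL1RN, the interleukin 1 receptor antagonist, was at 28.5 RPKM in lung and 3.65 in spleen, with 0.672 in heart, 0.124 in kidney and 0.0294 in cerebellum. PTGS2, the inducible cyclooxygenase, and ANGPT2, an antagonist of endothelial Tie2 signalling, had 7.03 and 7.94 RPKM in lung and 1.02 and 1.47 in spleen, so the spleen level of PTGS2 was within counting error of the threshold. The lowest ratio of all, 0.0298, belonged to a gene without a symbol on chromosome 8 (ENSMMUG00000029043, chr8:8070081-8072569), at 57.7 RPKM in lung, 1.72 in spleen and listed at 0 in the other 3 tissues, with 34 reads in spleen.

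At the spleen end, 2 neighbouring genes are not known from leukocytes. TNNI2 (chr14:1749593-1751682), the inhibitory troponin subunit of fast skeletal muscle, was at 65.8 RPKM in spleen and 1.29 in lung, with 0.241 in heart and 0.115 in kidney, and was listed at 0 in cerebellum. SYT8 (chr14:1741129-1747019), a synaptotagmin, was at 38.0 RPKM in spleen and 1.12 in lung, with 0.0595 in kidney and 0.0233 in heart, and was listed at 0 in cerebellum. Their ratios were 51.2 and 34.0. TNNT3, the fast troponin T gene in the same neighbourhood, had only 0.911 RPKM in spleen, 1.46 in lung and 2.53 in heart. LSP1, a leukocyte gene within 60 kb, had 153 RPKM in spleen and 46.6 in lung. The read counts are given per transcript with no strand setting in the sources used here, so reads from overlapping or opposite transcripts at this site cannot be told apart.

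The genes were spread over the 20 autosomes and the X chromosome, unevenly. Chromosome 1 held the most, 78 genes or 11.6% of the group. It also has the most genes, 2965, and 2.63% of these were in the group, near the share over all genes. As a share of the genes on a chromosome, chromosome 19 led with 3.81% (64 genes), followed by chromosome 10 with 3.71% (50 genes), and chromosome 7 was lowest with 1.33% (28 genes), beside 2.34% over all genes. As a share of the genes at 1 RPKM or more in lung and spleen, chromosome 10 stood first with 8.46%, ahead of chromosome 19 with 7.82% and chromosome 5 with 7.77%. None of the 38 mitochondrial genes was in the group. The median ratio was highest on chromosome 13, at 3.23, and lowest on chromosome 18, at 0.786 over 7 genes.

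**Figure D5:**
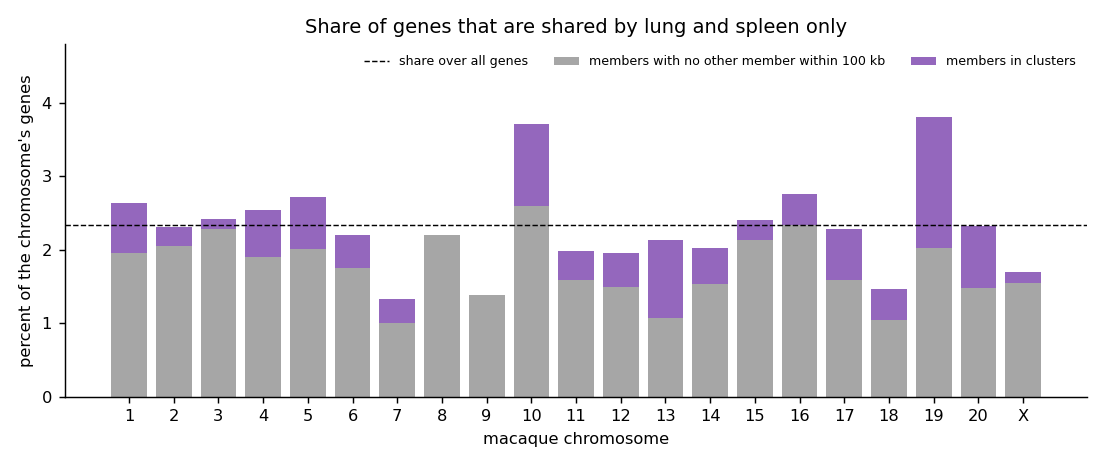
Percent of the genes on each macaque chromosome that are in the group, split into genes in clusters (at least 1 other such gene within 100 kb) and the rest, with the share over all genes (2.34%) as a dashed line. Chromosomes 19 (3.81%) and 10 (3.71%) stand highest, and on chromosome 19 a large part lies in clusters.

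Genes of the group often lay next to each other. Joining genes whose spans lie at most 100 kb apart gave 65 clusters with 158 genes, or 23.6% of the group, where the other 9 pairs of tissues had 0 to 16.7% of their genes in such clusters. That share grows with the number of genes in a group, and the other pairs had 19 to 262 genes, so the values are no measure of clustering beyond group size. There were 48 clusters of 2 genes, 10 of 3, 6 of 4 and 1 of 8. Spleen was at least 2-fold above lung for every gene in 15 clusters, and lung for every gene in 2. Within 9 pairs the gene models overlapped, and in none of these were the read numbers identical. Differing read numbers do not show that overlapping models hold separate reads. The pair ENSMMUG00000010605 and ENSMMUG00000010606 had 1918 and 1868 reads in lung and 196 and 185 in spleen. This pair was 1 of the 2 clusters in which lung was at least 2-fold above spleen for every gene. Such overlaps were present in 9 of the 65 clusters, and whether the models share reads was not tested. Chromosome 19 had 12 clusters with 30 genes.

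The 3 clusters of 4 genes on chromosome 19 hold leukocyte receptor genes, and the other 9 there are pairs. At chr19:57673079-57871778 lie SIGLEC5 and the 3 formyl peptide receptors, which guide phagocytes to bacterial peptides. FPR1 was at 22.1 RPKM in spleen and 12 in lung, with 0.845 in heart, 0.507 in cerebellum and 0.453 in kidney. FPR2 had 5.83 RPKM in spleen and 2.50 in lung, and FPR3 had 10.8 and 3.23. The ratio was thus 1.84 for FPR1, 2.33 for FPR2 and 3.34 for FPR3. At chr19:60351709-60474702 lie LILRB5, LILRA5, LILRA3 and a gene without a symbol, members of or neighbours to the leukocyte immunoglobulin-like receptors, with ratios from 1.41 to 1.94. Next along the chromosome, at chr19:60723107-60921244, LILRB1, KIR2DL4, FCAR and NCR1 had ratios from 0.704 to 5.98. NCR1, a natural killer receptor, was at 1.28 RPKM in spleen and 1.17 in lung and listed at 0 elsewhere, while FCAR, the immunoglobulin A receptor of neutrophils, was higher in lung, with 13.3 RPKM against 9.36 in spleen. All 4 detected LILR genes, all 6 detected sialic acid-binding lectin genes, all 3 measured granzymes and all 3 formyl peptide receptors among the genes with a symbol were in the group, out of 5, 7, 3 and 3 measured. Other families were in the group only in part, such as 5 of 10 toll-like receptors, 2 of 6 Fc receptor-like genes and 1 of 4 GIMAP genes. Larger families had 5 of 38 kinesins and 7 of 291 zinc finger genes in the group. Over all genes with a symbol the share was 2.94%, and the zinc finger genes lay near it. These families were picked out after their values had been seen.

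The largest cluster, on chromosome 13 (chr13:89846453-90290058), consisted of 8 short gene models with no symbol. The span held 17 genes with exon lengths of 143 to 377 bp, all 17 were under 1 RPKM in cerebellum, kidney and heart, and 16 of 17 were higher in spleen than in lung. The 9 that were not in the group were all under 1 RPKM in lung, and 3 of them were under 1 RPKM in spleen as well. The 8 had 1.05 to 3.48 RPKM in lung and 3.57 to 23.6 in spleen, with ratios of 1.83 to 8.29. A similar run on chromosome 10 (chr10:65929915-66039290) began with IGLV10-54, a variable segment of the immunoglobulin lambda light chain, at 25.5 RPKM in spleen and 11.5 in lung, with 0.406 in kidney and 0.0516 in heart and listed at 0 in cerebellum. Its 3 neighbours in the group, without symbols and with ratios of 1.47 to 5.76, are gene models of 305 to 463 bp. Light chain segments resemble each other closely, and how reads that match several segments were counted is not given in the sources used here, so the split between these genes is uncertain.

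Some other clusters are given as examples, picked after their values had been seen. CD3E lay with JAML, an adhesion molecule of leukocytes, and 2 genes without symbols (chr14:116574746-116723397), and of these ENSMMUG00000017595 had 46.9 RPKM in spleen and 6.32 in lung, a ratio of 7.42 beside the 7.23 of CD3E. APOBEC3B and APOBEC3H, cytidine deaminases that restrict viruses, had ratios of 3.34 and 2.91 (chr10:82864516-83005191). GZMA and GZMK formed a cluster on chromosome 6, and GZMB stood with CMA1, the mast cell chymase, on chromosome 7 (chr7:87390039-87513297), where all 3 genes had ratios between 0.774 and 0.788. NKD1, SNX20 and NOD2 on chromosome 20 were mixed, with NKD1, a Wnt signalling antagonist, at 0.338 and SNX20, a sorting nexin of leukocytes, at 2.75.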

How the data were processed

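For calling editing sites, the paper describes an alignment of paired reads with BWA (v0.5.9-r16) to the rheMac2 genome and Ensembl v65 transcripts. It does not cover the spleen library, and it refers to earlier work for its ADAR expression levels. The submitters' processing notes also name TopHat 1.2.0. The counting tool and its strand setting are not given in the sources used here. The authors deposited, for 51763 transcripts per tissue, read counts that are not normalized and RPKM values, which were recomputed from the counts in every row. Transcripts of a gene can carry the same reads. Symbols came from a RefSeq gene table matched by Ensembl identifier, and 8057 transcripts without a gene identifier were left out of the main set.

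The highest transcript RPKM stood for a gene in each tissue. Reads had 95% Wilson intervals, and spleen to lung ratios exact (Clopper-Pearson) intervals from the reads. With 1 library per tissue no test between tissues was made. The genes and lists were chosen with earlier results of these data known; gene families, TNNT3 and LSP1, and the interferon, matrix and pancreas lists were chosen after their values had been seen. Named were the 12 genes with the highest geometric mean of lung and spleen, the 6 highest and 6 lowest ratios with 30 or more reads in both tissues, up to 3 genes per list, 3 genes on each side of each limit, and the genes of the 5 largest clusters; others were picked from these results as examples. Scripts, tested on simulated data, used scipy 1.17.1, pandas 2.3.3 and numpy 2.4.6 under Python 3.11.15, and figures matplotlib 3.10.9. Alternatives covered the threshold, the transcript used, the scaling, minimum reads, transcript length and cluster distance. Some named genes are not reported here.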

Additional observations from a re-analysis of the deposited data

Results flagged for a closer look

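The transcripts without a gene identifier lay outside the main comparison. Of the 8057 such transcripts, 213 (2.64%) met the same limits in the 5 tissues, with a median spleen to lung ratio of 1.30, and 14 of them overlapped the span of a gene of the group. The one with the highest geometric mean of lung and spleen, IMMRT10000147220 (chr11:25337787-25343017, exon length 380 bp), was at 75.8 RPKM in spleen and 12.6 in lung, with 0.981 in kidney, 0.540 in heart and 0.387 in cerebellum. It lies within the span of IRAG2 (chr11:25328529-25385687), a gene of the group with a ratio of 4.77 beside its own 6.04, and whether the transcript and the gene share reads was not tested. Another, IMMRT10000150951 (chr13:86271173-86274242), was higher in lung, with 32.4 RPKM against 14.0 in spleen. No group had the 4 samples needed to look for a library apart from its replicates.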

How the results depend on the processing

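Each tissue had 1 library, so no replicate could be left out and nothing here measures the spread between animals. No paired analysis was possible because each tissue is a single library and no test between tissues was made. The size of the group depended most on how close to the limit the genes were allowed to lie. With under 0.5 RPKM required in cerebellum, kidney and heart, 318 genes were left, with a median spleen to lung ratio of 2.48 and 24 clusters. With 2 RPKM or more required in lung and spleen, 345 genes were left, with a ratio of 2.09 and 31 clusters. With every counting interval clear of 1 RPKM, an alternative chosen after seeing the data, there were 421 genes, a ratio of 2.16 and 37 clusters. A threshold of 0.5 RPKM in all tissues gave a ratio of 2.03 for 566 genes, of which 318 were in the main set, and scaling to a common upper quartile gave 42 clusters for 483 genes, of which 457 were. All other alternatives kept the numbers of genes and of clusters within 1.5 times of the main values. They kept the ratio within 1.39 to 2.00, the counting interval of the gene at the median ratio. These alternatives included leaving heart out, also chosen after seeing the data, which gave 757 genes. The genes themselves could still change. A threshold of 2 RPKM in all tissues gave 778 genes, of which 345 were in the main set. The median ratio stayed above 1 in all alternatives. Chromosome 19 held the largest share of the group at a threshold of 2 RPKM (10.4%) and with common upper quartiles (11.2%). In the main set and all other alternatives it was chromosome 1, which also has the most genes.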

Other observations

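Several gene groups outside the leukocyte lists were looked at after their values had been seen. Of the 47 genes induced by interferon at 1 RPKM or more in lung and spleen, 14 were in the group and 33 were also detected elsewhere, where over all genes detected in both 5.78% were in the group. The 14 included RSAD2 and the IFI44 and IFI44L pair, antiviral effectors of the interferon response, and their median spleen to lung ratio was 1.52 (0.629 to 3.6), with spleen at least 2-fold above lung for 5. Of 56 genes of the extracellular matrix and its enzymes at 1 RPKM or more in both, 11 were in the group and 45 were also detected elsewhere. The 11 had a lower median ratio, 0.436. Lung was at least 2-fold above spleen for 6 of the 11, beside 8.51% of the whole group. CCN4, a matricellular target of Wnt signalling, had 24.3 RPKM in lung and 3.72 in spleen, ASPN, a small proteoglycan, had 8.23 and 2.89, and COL5A1, a chain of type V collagen, had 2.38 and 1.04. Of the 11, the 2 at least 2-fold higher in spleen were MMP9 and SMOC2, a matricellular calcium-binding protein at 5.89 RPKM in spleen and 2.82 in lung. Matrix genes outside the group leaned both ways. FN1 had 74.3 RPKM in lung and 7.57 in spleen, COL6A1 had 42.0 and 10.7, and LUM had 55.1 and 105. COL5A1 and its 2 neighbours formed 1 of the 2 clusters in which lung was at least 2-fold above spleen for every gene, with ratios of 0.436 to 0.443.

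Of 9 measured MCM genes, most of them subunits of the helicase that opens DNA for replication, MCM3 and MCM5 were in the group, with 10.7 and 8.08 RPKM in spleen and 2.12 and 1.62 in lung. MCM2, MCM4, MCM6 and MCM7 were also higher in spleen than in lung, and each reached 1 RPKM in cerebellum as well. All 3 RUNX transcription factor genes, which act in blood cell development, were in the group with ratios of 1.19 to 2.39. Of 5 Ikaros family genes 3 were, with ratios of 2.27 to 7.02. Over all genes with a symbol 2.94% were in the group, and over all genes detected in both tissues 5.78%. These small families were picked after their values had been seen, so the counts are examples.

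Among genes of microRNA precursors, the MIR142 gene model (367 bp), whose product is known from blood cells, was at 57.2 RPKM in spleen, 8.09 in lung, 0.564 in kidney and 0.10 in cerebellum and was listed at 0 in heart. The mml-mir-223 gene model, known from myeloid cells, was at 3.27 RPKM in lung and 2.13 in spleen, and mml-mir-143, known from smooth muscle, was at 3.98 and 1.89. These are reads of poly(A)-positive RNA on the gene models and give no level of the mature microRNA. Of 285 measured small nucleolar RNA genes 13 were in the group, beside 2.94% of all genes with a symbol. Their ratios were 0.424 to 1.96, and in none was spleen 2-fold above lung. They lay near the threshold, at 1.04 to 3.53 RPKM in lung and 1.03 to 3.04 in spleen. Short gene models hold few reads at such levels, so these ratios are uncertain. These too are reads of poly(A)-positive RNA on the gene models.

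CPA1, a digestive carboxypeptidase of the exocrine pancreas, was at 16 RPKM in spleen and 1.08 in lung. It was the only 1 of 10 measured pancreatic enzyme genes in the group. PRSS1, PNLIP and CEL had 0.148, 0.134 and 1.14 RPKM in spleen, and whether pancreatic RNA had a part in the spleen value was not tested.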
